A study of Macaca fascicularis and Mus musculus with 42 samples.

Results

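The genes described here are direct targets of bone morphogenetic protein (BMP) signalling: ID1, ID2, ID3, ID4, SMAD6, SMAD7, BAMBI, MSX1 and MSX2. They were taken by symbol from a table of 26018 cynomolgus monkey genes, in which all 9 were found, and their 9 mouse orthologs were taken from a mouse table of 34896 genes. The gene IDs of all 9 matched the same symbols in RefSeq.

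BMPs are secreted ligands that bind paired receptor kinases, which phosphorylate SMAD1, SMAD5 and SMAD9. These carry the signal to the nucleus with SMAD4 and switch on the genes listed above. In the mammalian embryo BMP signals from extraembryonic tissue induce primordial germ cells, and in culture BMP4 is added to pluripotent cells to obtain primordial germ cell-like cells (PGCLCs). The ID proteins are helix-loop-helix proteins without a DNA-binding region that pair with E proteins and keep them off DNA. SMAD6 and SMAD7 are inhibitory SMADs and BAMBI is a receptor-like protein without a kinase domain, so their products damp the pathway that induces them. MSX1 and MSX2 are homeobox transcription factors.

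The study measured bulk 3′ RNA-seq in 42 libraries, 38 from monkey and 4 from mouse, as reads per 1000000 reads of the library (RPM). The induced monkey libraries used in the comparisons came from a single line, 656BTAG42, which carries the reporters Blimp1-tdTomato (BT, for PRDM1) and TFAP2C-EGFP (AG). The induced libraries of the other reporter line, 656BTAG63, were labelled BTAG of day 6 and are all among those left out below. Every induced group received BMP4 at 200 ng/ml with SCF at 100 ng/ml, EGF at 50 ng/ml, LIF at 1000 U/ml and Y27632 at 10 µM, as floating aggregates in GK15 (GMEM with 15% serum replacement) or aRB27 (Advanced RPMI1640 with B27). None of the libraries analysed here was induced without BMP4. Cells were sorted as positive for both reporters (BTAG; days 2, 4 and 6 in both media, days 8 and 10 in GK15), as positive for BT alone (days 2 and 4 in aRB27), or as mid positive for AG (day 2 in aRB27, day 4 in GK15). Day 0 was 4 libraries of undifferentiated embryonic stem cells (ESCs) of the reporter lines, 3 of 656BTAG42 and 1 of 656BTAG63, grown with bFGF. A further 5 ESC libraries came from lines without reporters: CMK6 (2 libraries), 656, 681F and 22. The mouse libraries, 2 each at days 4 and 6 of induction in GK15 with the same factors, came from the line R8, which carries Blimp1-membraneVenus and Dppa3-ECFP and passes through an epiblast-like state. The labels do not say that libraries of a group came from separate cultures, so p-values measure only the spread between these libraries, which may be technical.

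Of 33 reporter-line libraries, 24 in 13 groups were used and 9 were left out because their group was in doubt. In 6 of these 9 the PRDM1 level went against the labelled gate: it was 4.90, 0 and 0.50 RPM in the second GK15 libraries labelled BTAG at days 2, 4 and 6, 194 and 145 RPM in GK15 libraries labelled AG mid at days 2 and 4, and 253 RPM in the fifth library labelled day 0. The other 3, labelled aRB27 BTAG at days 6, 8 and 10, had PRDM1 at 153, 135 and 194 RPM and were set aside with them. In the 18 used libraries labelled BTAG or BT, PRDM1 lay between 85.1 and 318 RPM, and in the 6 used ESC and AG libraries between 0 and 11.1 RPM. With all 33 libraries taken as labelled, 0 of the 9 genes passed the test at day 2, at day 6 in GK15, between the BT and BTAG gates, in AG cells against ESCs, or between the AG and BTAG gates, and 4 passed at day 4. All values that follow rest on leaving those 9 out. Depth in the 24 libraries ranged from 1.08 to 6.80 M reads, so that 1 read was worth 0.147 to 0.929 RPM, and intervals and limits from it cover counting error only. No 2 of the monkey libraries were identical.

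The ID family is shown first at the level of sequence, because its members share the helix-loop-helix region through which they bind E proteins. The stretch of 40 codons around it is given from the mouse genome (GRCm38), 5′ to 3′ on the coding strand, with capitals for the 69 of 120 bases that are the same in all 4 genes.
Id1: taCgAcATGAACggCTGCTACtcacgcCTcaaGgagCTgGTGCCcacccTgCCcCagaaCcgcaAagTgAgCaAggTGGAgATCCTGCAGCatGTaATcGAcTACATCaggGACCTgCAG
Id2: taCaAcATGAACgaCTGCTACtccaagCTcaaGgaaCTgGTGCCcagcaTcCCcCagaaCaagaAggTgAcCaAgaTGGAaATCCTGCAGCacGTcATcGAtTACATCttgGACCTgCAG
Id3: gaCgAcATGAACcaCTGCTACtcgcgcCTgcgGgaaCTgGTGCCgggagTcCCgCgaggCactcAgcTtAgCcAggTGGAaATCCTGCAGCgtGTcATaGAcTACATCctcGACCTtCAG
Id4: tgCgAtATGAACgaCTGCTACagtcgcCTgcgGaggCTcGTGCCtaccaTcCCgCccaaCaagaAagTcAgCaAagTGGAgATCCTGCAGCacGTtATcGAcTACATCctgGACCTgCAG
All 4 stretches are coding sequence within the first exon. Id1 lies at chr2:152736518-152736637 on the plus strand and Id2 at chr12:25095783-25095902 on the minus strand. Id3 lies at chr4:136144002-136144121 and Id4 at chr13:48261693-48261812, both on the plus strand. Over the 40 codons, Id1 and Id4 shared 80% of amino acids, the highest of the 6 pairs, and Id2 and Id3 shared 60%, the lowest.

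The first comparison asked which targets were higher in BTAG cells, the PGCLC gate, than in ESCs. At day 2, 8 of the 9 rose against a background of 10.5% of the 10701 genes tested, and SMAD7 did not pass. The median log2 difference of the 9 was 2.39, against 0.05 for all genes. Only 6 of the 9 (ID1, ID2, ID3, ID4, SMAD7 and BAMBI) had at least 10 RPM in at least 2 ESC libraries, and 5 of these 6 rose. SMAD6, MSX1 and MSX2 entered the test through induced libraries alone, so their direction is partly set by the filter. All comparisons with day 0 share the same 4 ESC libraries.

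**Figure D1:**
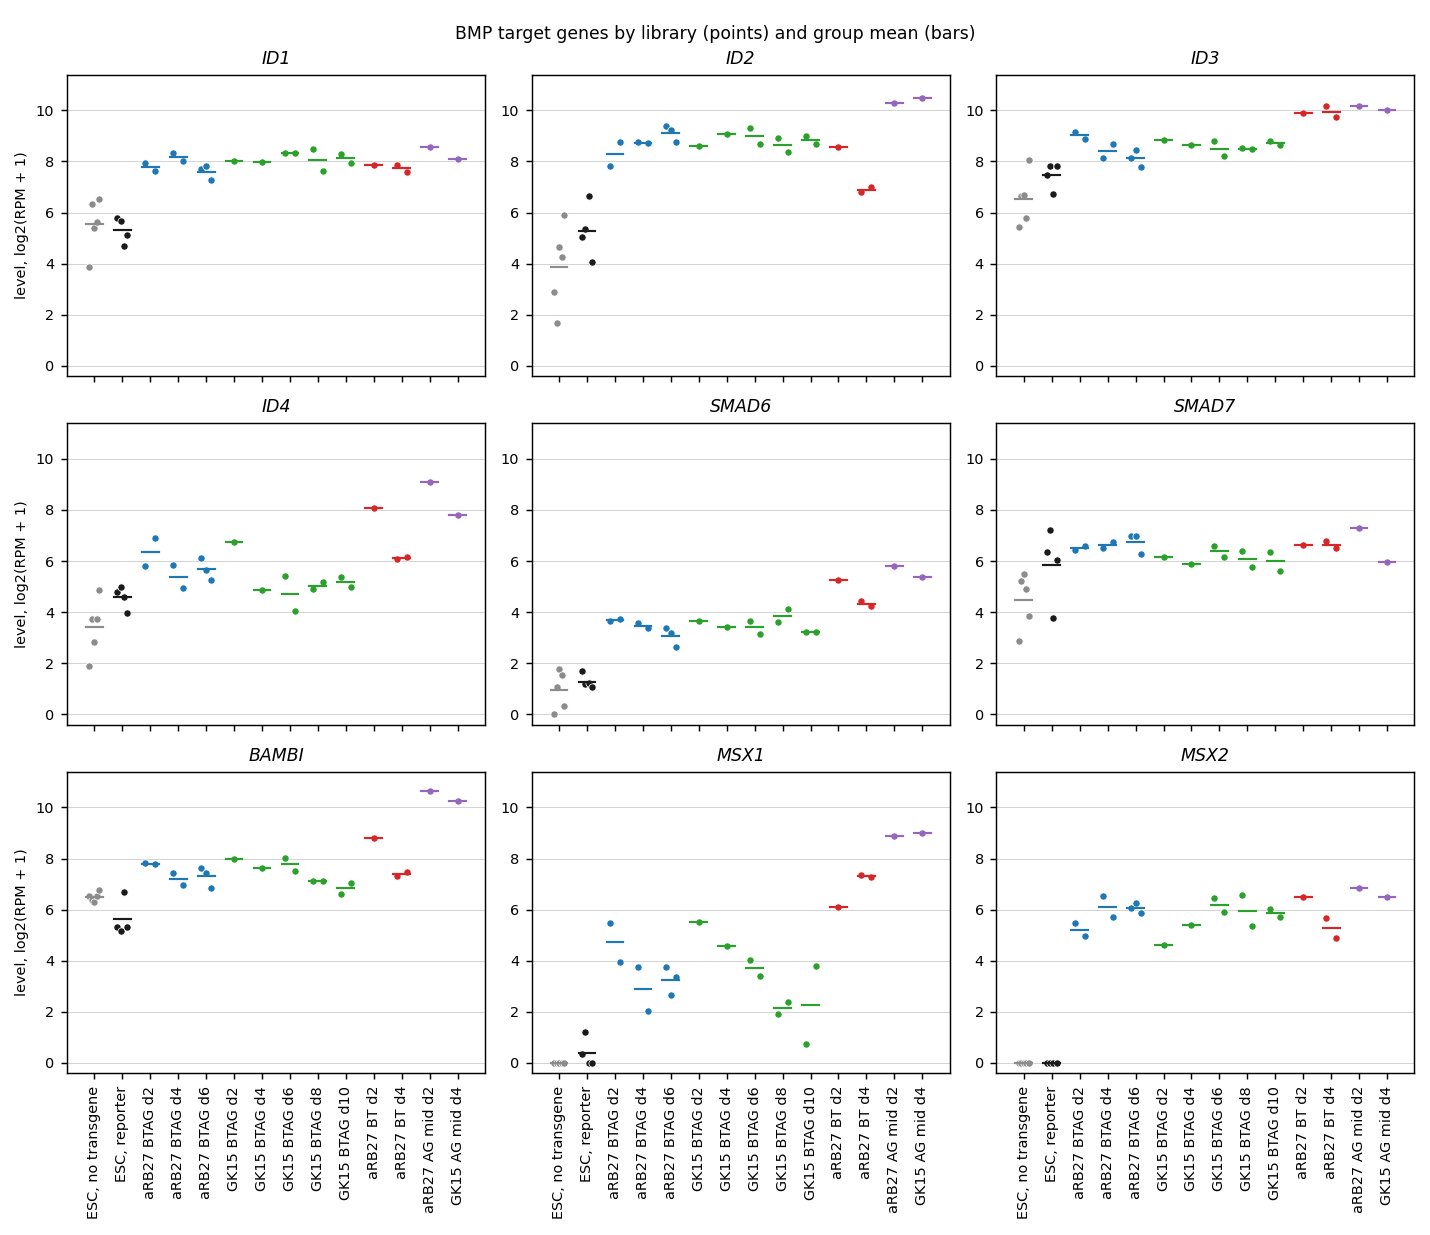
Level as log2(RPM + 1) of each of the 9 genes in every used monkey library (each point is 1 library, groups on the horizontal axis, short lines at group means). MSX2 was at 0 in all 4 ESC libraries and at 23.2 to 94.7 RPM in every BTAG library, whereas SMAD7 in ESCs (12.75 to 146 RPM) spanned its levels in the BTAG groups.

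ID1 was at 54.6, 49.6, 24.6 and 33.9 RPM in the 4 ESC libraries, at 241 and 198 RPM in the aRB27 BTAG libraries of day 2, and at 261 RPM in the GK15 one. The groups did not overlap. The log2 difference was 2.59 ± 0.26 (SE, limma adjusted p = 4.27e-07). ID2 was at 31.8, 40.1, 98.5 and 15.6 RPM in ESCs and at 223, 431 and 384 RPM in day 2 BTAG cells. The highest ESC library, numbered 3, was below every induced library. ID2 rose by a log2 difference of 3.16 ± 0.41 (SE, limma adjusted p = 1.04e-05). ID3 was at 174, 224, 106 and 228 RPM in ESCs and at 568, 473 and 452 RPM at day 2, again without overlap. It rose by 1.46 ± 0.25 on the log2 scale (SE, limma adjusted p = 0.00028), the smallest difference among the called targets. ID4 was at 26.6, 30.6, 23.3 and 14.55 RPM in ESCs and at 54.3, 119 and 108 RPM at day 2. It rose by 1.98 ± 0.35 (log2, SE, limma adjusted p = 0.000402), without overlap.

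Among the inhibitors of the pathway, SMAD6 was at 2.21, 1.29, 1.32 and 1.08 RPM in ESCs and at 11.7, 12.2 and 11.6 RPM in BTAG cells of day 2, a log2 difference of 2.39 ± 0.31 (SE, limma adjusted p = 1.08e-05). The induced libraries lay close together and above all ESC libraries. BAMBI was at 38.8, 34.95, 103 and 38.8 RPM in ESCs and at 224, 221 and 255 RPM at day 2, with a log2 difference of 2.28 ± 0.30 (SE, limma adjusted p = 1.51e-05). The groups did not overlap, although the third ESC library stood apart. SMAD7 was at 81.2, 146, 12.75 and 64.1 RPM in ESCs and at 85.9, 95.5 and 70.7 RPM at day 2. These ranges overlapped, and the log2 difference of 0.50 had a 95% interval of -0.58 to 1.58. Without the third ESC library it was -0.19, so 1 library sets its sign.

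The homeobox genes showed the largest differences. MSX1 was at 0.29, 1.29, 0 and 0 RPM in ESCs and at 43.2, 14.6 and 45.1 RPM in day 2 BTAG cells, a log2 difference of 4.73 ± 0.60 (SE, limma adjusted p = 9.52e-06). MSX2 was at 0 in all 4 ESC libraries and at 43.2, 30.2 and 23.2 RPM at day 2. Its fitted log2 difference of 4.91 ± 0.31 (SE, limma adjusted p = 1.02e-09) depends on the pseudocount of 1. Against 3 reads over the 4 ESC libraries together (0.226 RPM), MSX2 was at least 162-fold higher in aRB27 and at least 103-fold higher in GK15.

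**Figure D2:**
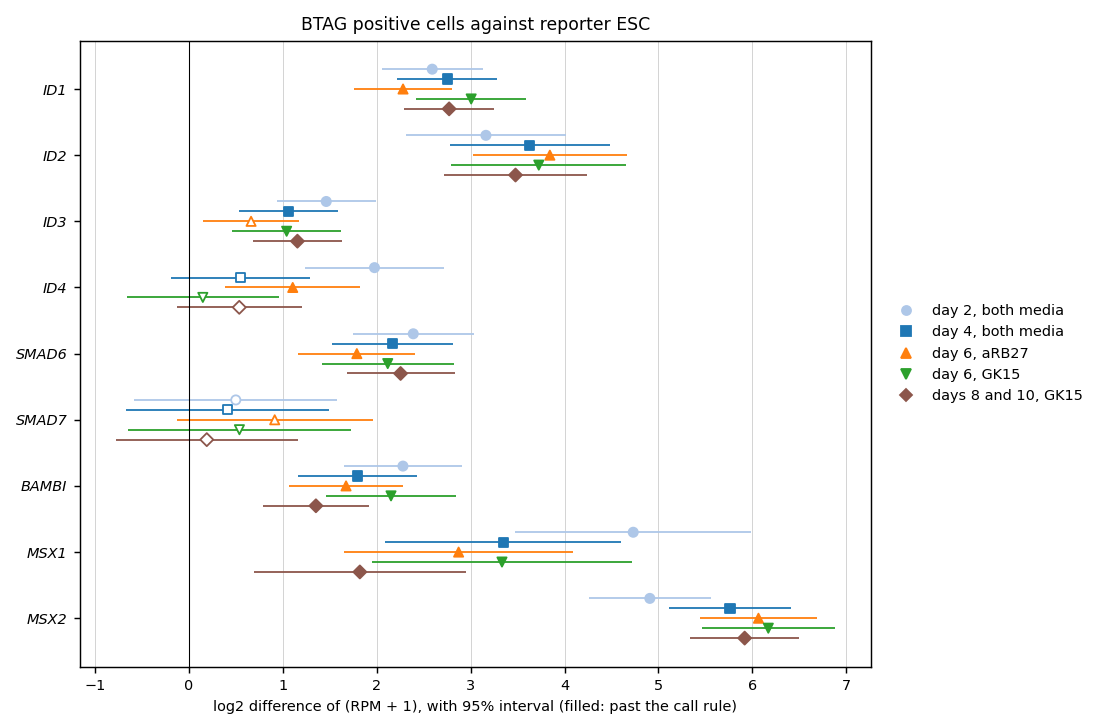
Log2 differences of BTAG cells from ESCs on the log2(RPM + 1) scale for the 9 genes at days 2, 4, 6 (by medium) and 8 to 10 (GK15), with 95% intervals as bars; filled points were called. MSX2, ID2 and ID1 stayed at log2 differences above 2 at every time, ID4 was called at day 2 and at day 6 in aRB27, and SMAD7 was called at none with all 4 ESC libraries in the fit.

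After day 2 fewer of the 9 were called, although these comparisons do not test later days against day 2. At day 4, 7 of 9 were higher (background 12.9%), and ID4 joined SMAD7 among those not called, with a log2 difference of 0.54 and an interval of -0.20 to 1.29. At day 6 in GK15, 7 of 9 were again higher (background 14%). At day 6 in aRB27, 7 of 9 were higher (background 12.8%), with ID4 called at 1.10 (limma adjusted p = 0.0159) and ID3 at 0.66, under the log2 threshold of 1. At days 8 and 10 in GK15, 7 of 9 were higher (background 15.4%). Among the 6 genes that had reads enough in ESCs, 4 were called in each of these 4 comparisons. The members' median log2 differences were 2.17, 2.15, 1.79 and 1.82 in this order, and those of all genes lay between -0.09 and 0.02.

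ID1 and ID2 were high throughout. At day 6, ID1 was at 318 and 319 RPM in GK15 and at 206.5, 223 and 155 RPM in aRB27, with log2 differences from ESCs of 3.005 and 2.28. ID2 was at 628 and 414 RPM in GK15 and at 669, 593 and 427 RPM in aRB27, with log2 differences of 3.73 and 3.84. All day 6 libraries were above all 4 ESC libraries for both genes. At days 8 and 10, ID1 was at 355, 198, 311 and 246 RPM and ID2 at 486, 331, 514 and 412 RPM, still above every ESC library.

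ID3 was the weakest of the called genes. At day 6 it was at 445 and 293 RPM in GK15, above all 4 ESC libraries, and at 281, 349 and 218 RPM in aRB27, where the lowest library was below 2 of the ESC libraries. Its log2 difference was 1.06 at day 4, 1.04 at day 6 in GK15 and 1.15 at days 8 and 10. Without the third ESC library these were 0.82, 0.80 and 0.91, under the threshold of 1. ID4 lay within the ESC range in part of the GK15 libraries: it was at 41.2 and 15.7 RPM at day 6, 28.8 and 35.55 RPM at day 8, and 40.8 and 30.9 RPM at day 10. Its log2 difference at day 6 in GK15 was 0.15, with an interval of -0.67 to 0.96. The aRB27 call of ID4 at day 6 was lost without the first aRB27 day 6 library or the ESC library with the lowest level (14.55 RPM).

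SMAD6 and BAMBI remained called at every time. SMAD6 was at 11.7 and 7.84 RPM at day 6 in GK15 and at 9.31, 8.21 and 5.29 RPM in aRB27, above all ESC libraries. BAMBI at day 6 was at 262 and 182 RPM in GK15 and at 197, 171 and 114 RPM in aRB27. At day 10 its 2 libraries were at 97.6 and 132 RPM, and the lower of them overlapped the third ESC library. SMAD7 was at 95.8 and 70.5 RPM in GK15 and at 127, 125 and 77.4 RPM in aRB27 at day 6. All of these lay inside the ESC range of 12.75 to 146 RPM, and the intervals of its log2 difference reached -0.13 to 1.96 in aRB27 at day 6 and -0.78 to 1.16 at days 8 and 10 in GK15. A fit of the libraries with one name code alone keeps 2 of the 4 ESC libraries, at 12.75 and 64.1 RPM. There SMAD7 was called at day 6 in aRB27 (log2 1.73) and was not called at the other times.

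MSX2 was at 86.2 and 58.5 RPM in GK15 and at 65.2, 75.6 and 58.2 RPM in aRB27 at day 6, at least 319-fold and 293-fold above the 3-read level of the ESCs. MSX1 was at 15.4 and 9.64 RPM in GK15 and at 12.7, 5.28 and 9.26 RPM in aRB27. The MSX1 call at days 8 and 10 (log2 1.82, limma adjusted p = 0.00901) rested on 2.79, 4.17, 0.69 and 12.8 RPM, of which the lowest was inside the ESC range. It was lost without the second day 10 library (limma adjusted p = 0.0755).

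The ESC levels of the reporter lines were compared with the 5 libraries of lines without one. MSX2 was at 0 in all 5, as was MSX1, and SMAD6 was at 0 to 2.46 RPM, so these were under the filter. Of the other 6 genes, 0 passed (background 0.200% in either direction), and 0 by edgeR or DESeq2. At an unadjusted p under 0.05, limma gave ID4 higher in the reporter lines (log2 1.16) and BAMBI lower (log2 -0.88, limma adjusted p = 0.261). BAMBI was at 77.3 to 108 RPM without reporters, so that the reporter ESC library numbered 3, at 103 RPM, lay in that range and the other 3 below it. The intervals of the other differences, -1.27 to 0.79 for ID1, -0.20 to 3.01 for ID2, -0.05 to 1.92 for ID3 and -0.07 to 2.80 for SMAD7, all reach past 1 log2 unit in one direction. ID3 ranged from 42.8 to 263 RPM over the 5 libraries of these lines and SMAD7 from 6.37 to 44.5 RPM. The code in the library names that differs between the ESC groups cannot be told apart from the group.

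Genes of other cell types were read in the ESC libraries as well. A list of 7 stromal genes summed to 2774 to 4753 RPM in reporter ESCs and to 1668 to 5423 RPM in BTAG cells. Most of that sum was VIM, an intermediate filament gene of many cell types, at 2796 RPM on average in ESCs, 1753 RPM in GK15 and 3692 RPM in aRB27 BTAG cells of day 6, not called in either medium. TAGLN, a smooth muscle and fibroblast gene, was at 455 to 1834 RPM in ESCs against 0 to 11.1 RPM in day 6 BTAG cells, and COL1A1, a collagen gene, at 133 to 346 against 0.83 to 11.1 RPM. ACTA2, the smooth muscle actin, was also lower at day 6 in both media (15.85 RPM on average in ESCs, log2 -2.81 in GK15 and -3.52 in aRB27). The remaining genes did not follow these: PDGFRB was lower in GK15 (log2 -1.37) and at 1.07 in aRB27, not called, PDGFRA was not called at day 6 and was higher at day 4 (log2 1.79), and COL3A1 was under the filter. The part of such cells in the ESC levels of the target genes was not tested. In bulk samples, fewer cells of a type and less RNA per cell cannot be told apart.

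Over days 2 to 10 the question was which targets kept their level in BTAG cells. In 15 BTAG libraries fitted on day and medium, MSX1 and BAMBI declined (background 12.2% of 9826 genes lower), MSX2 increased (background 7.14% higher), and 6 of 9 had no called slope. The slope of MSX1 was -0.41 ± 0.10 log2 units per day (SE, limma adjusted p = 0.00453). In GK15 its level went from 45.1 RPM at day 2 to 22.7 RPM at day 4, and to 0.69 and 12.8 RPM at day 10. BAMBI had a slope of -0.14 ± 0.03 per day (SE, limma adjusted p = 0.004), from 255 RPM at day 2 in GK15 to 97.6 and 132 RPM at day 10. Without the first day 10 library the BAMBI slope was -0.125 per day, which is at the threshold and no longer called. MSX2 had a slope of 0.15 ± 0.05 (SE, limma adjusted p = 0.0373), but the call was lost in 6 of 15 leave-one-out fits. Without the only used GK15 library of day 2 it was 0.10 per day (limma adjusted p = 0.294).

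**Figure D3:**
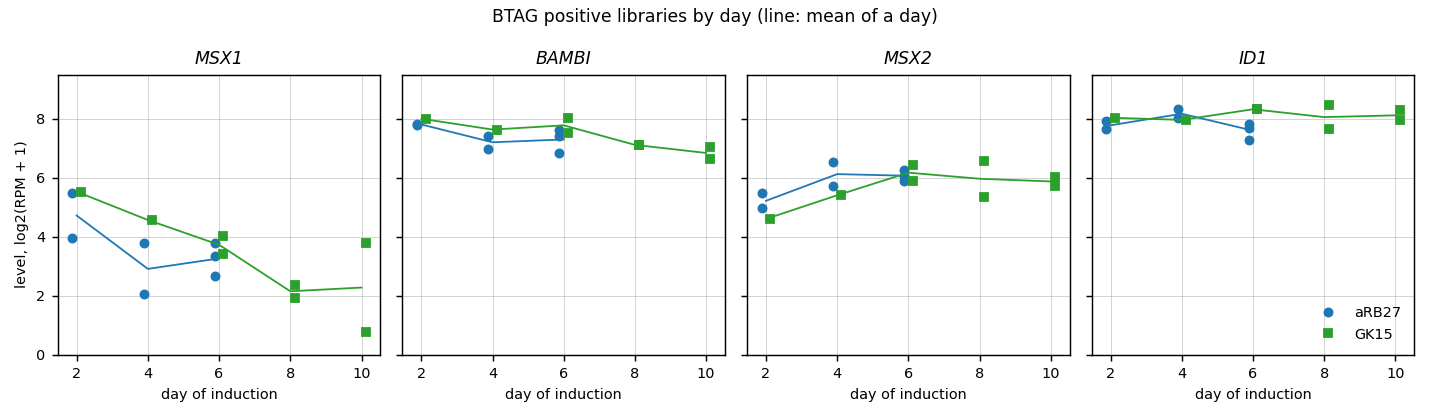
Level as log2(RPM + 1) of MSX1, BAMBI, MSX2 and ID1 in BTAG libraries against day of induction, by medium, with 1 point per library and lines through the daily means. MSX1 went down from 14.6 to 45.1 RPM at day 2 to 0.69 to 12.8 RPM at days 8 and 10, while ID1 had no called slope (198 to 261 RPM at day 2 and 198 to 355 RPM at days 8 and 10).

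Among the slopes not called, those of ID1 (-0.01 per day, interval -0.08 to 0.06) and SMAD7 (0.004, -0.07 to 0.08) had intervals that leave out a change of 1 log2 unit over 8 days. The others did not: ID4 was at -0.12 per day (interval -0.26 to 0.02), near the called slope of BAMBI in size, ID3 at -0.06 (-0.14 to 0.01), SMAD6 at -0.06 (-0.16 to 0.04) and ID2 at 0.05 (-0.03 to 0.14). Only GK15 libraries reach days 8 and 10, so late times and medium cannot be told apart beyond the fitted medium term.

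The 2 media were compared over days 2, 4 and 6 of BTAG cells. Of the targets 0 of 9 passed, and 0 by edgeR or DESeq2, with 9 of all 10701 genes called (0.0841%) and 735 at an unadjusted p under 0.05. None of the 9 had an unadjusted p under 0.05. The nearest was MSX1, with a log2 difference (aRB27 minus GK15) of -0.98 and an interval of -2.02 to 0.06. For ID1 the interval was -0.70 to 0.18 and for ID3 -0.57 to 0.30, so a difference of 1 log2 unit lies outside both. The same holds for ID2 (-0.88 to 0.52), ID4 (-0.26 to 0.97), SMAD6 (-0.62 to 0.45), BAMBI (-0.89 to 0.15) and MSX2 (-0.12 to 0.94). For SMAD7 it was -0.40 to 1.39, which includes the threshold, as does that of MSX1.

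The cells positive for BT alone, collected in aRB27, expressed PRDM1 with little TFAP2C (0.34 to 3.48 RPM). They differed from BTAG cells of the same medium and day 4 in 3 of 9 targets. ID3 and MSX1 were higher (background 8.05%) and ID2 was lower (background 7.08%). Among the 6 genes with reads enough in ESCs, 1 was higher and 1 lower. The median of the 9 was 0.19 on the log2 scale, against 0.07 for all genes.

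MSX1 was at 165 and 153 RPM in the BT libraries and at 12.7 and 3.11 RPM in the BTAG libraries of day 4, a log2 difference of 4.42 ± 0.76 (SE, limma adjusted p = 0.000356). ID3 was at 1139 and 856 RPM against 283 and 404 RPM, a log2 difference of 1.54 ± 0.32 (SE, limma adjusted p = 0.00189). Neither gene overlapped between the gates. ID2 went the other way, at 111 and 125 RPM in BT cells and 428 and 415 RPM in BTAG cells, by -1.83 ± 0.51 (log2, SE, limma adjusted p = 0.0172). The ID2 call was lost whichever of the 4 libraries was left out, with adjusted p between 0.0649 and 0.0899, although its size stayed between -1.92 and -1.75.

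The other ID genes and inhibitors did not pass between these gates. ID1 was at 232 and 193 RPM in BT cells against 319.6 and 258 RPM, and ID4 at 67.2 and 70.2 RPM against 55.85 and 29.9 RPM. SMAD6 was at 20.4 and 18.1 RPM against 10.9 and 9.34 RPM (log2 0.86, limma adjusted p = 0.153), and MSX2 at 50.3 and 28.6 RPM against 90.98 and 51.7 RPM (log2 -0.84, limma adjusted p = 0.171). BAMBI at 160.3 and 175 RPM and SMAD7 at 109.5 and 89.4 RPM overlapped their BTAG levels. Against ESCs, 8 of 9 were higher in BT cells of days 2 and 4 (background 10.9%), with SMAD7 again the exception at a log2 difference of 0.79 (1.73 and called on the one name code alone). The called differences ran from 2.46 for ID2 to 6.33 for MSX1.

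The single BT library of day 2 had more of some of these RNAs than those of day 4. ID4 was at 271 RPM, BAMBI at 452 RPM, SMAD6 at 37.2 RPM and ID2 at 379 RPM, whereas MSX1 was lower, at 68.3 RPM. With 1 library this has no replicate check. The gate also differed in other markers: 8 endodermal genes (FOXA2, GATA4, GATA6 and others) summed to 855 and 1322 RPM in the BT libraries of day 4 and 2125 RPM at day 2, against 41.7 to 136 RPM in BTAG and 3.52 to 22.9 RPM in reporter ESCs. At least 10 RPM in at least 1 library of the group was reached by 8 of these 8 genes in BT cells of day 2 and 6 at day 4. In the BTAG groups 1 to 3 reached it, and TTR was at 0 in 7 of 8 of these groups. The germ cell list (PRDM1, TFAP2C, SOX17, NANOS3, KIT and DND1) summed to 654 to 1058 RPM in BT against 1479 to 2277 RPM in BTAG cells. This list holds the genes of both sort reporters, so part of that difference was set by the gate. TFAP2C alone averaged 619 RPM in BTAG cells of day 4 over both media. The part of these marker differences in those of ID2, ID3 and MSX1 was not tested.

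For all 9 targets the group with the highest mean RPM was one of the AG mid libraries, in which PRDM1 was no higher than 11.1 RPM. Against ESCs, 8 of 9 were higher (background 7.23%), and the median of the 9 was 4.31 on the log2 scale, against 0.08 for all genes. The called differences ran from 2.64 for ID3 to 8.55 for MSX1, and that of SMAD7 was 0.78. Against BTAG cells of the same medium and day, 7 of 9 were higher (background 5.05%), with ID1 and SMAD7 not called, and 4 of the 6 genes with reads enough in ESCs were among them. The members' median there was 1.70, against 0.03 for all genes. There was 1 AG library for each medium, and the one of day 4 carries another code in its name than its BTAG partner.

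MSX1 was at 467 RPM in AG cells of day 2 and at 514 RPM at day 4, against 43.2 and 14.6 RPM and 22.7 RPM in their BTAG partners. The log2 difference was 4.30 ± 0.71 (SE, limma adjusted p = 0.000313). BAMBI was at 1588 and 1209 RPM against 224, 221 and 197.5 RPM, a log2 difference of 2.72 ± 0.36 (SE, limma adjusted p = 2.75e-05). ID4 was at 549 and 225 RPM against 54.3, 119 and 28.2 RPM, a log2 difference of 2.85 ± 0.42 (SE, limma adjusted p = 9.49e-05). For all of them both AG libraries lay above every BTAG library used, at any day.

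SMAD6 was at 54.5 and 41.1 RPM in AG cells against 11.7, 12.2 and 9.83 RPM (log2 2.03 ± 0.36 SE, limma adjusted p = 0.0007), and ID3 at 1149 and 1045 RPM against 568, 473 and 396 RPM (log2 1.27 ± 0.30 SE, limma adjusted p = 0.00662). ID2 was at 1241 and 1438 RPM against 223, 431 and 540.3 RPM, a log2 difference of 1.70 ± 0.48 (SE, limma adjusted p = 0.0226). MSX2 was at 113 and 89.1 RPM against 43.2, 30.2 and 41.3 RPM, a log2 difference of 1.36 ± 0.37 (SE, limma adjusted p = 0.0171). The ID2 call was lost without the first aRB27 BTAG library of day 2 (adjusted p = 0.078) and that of MSX2 without the second (adjusted p = 0.0534).

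ID1 and SMAD7 were the 2 targets not called in this gate. ID1 was at 379 and 276 RPM in AG cells against 241, 198 and 248 RPM in the BTAG partners, a log2 difference of 0.47 with an interval of -0.16 to 1.11. SMAD7 was at 154 and 61.3 RPM against 85.9, 95.5 and 57.5 RPM, with a log2 difference of 0.42. The AG libraries also differed in other markers: 7 amnion genes (ISL1, GABRP, VTCN1, HAND1, GATA3, KRT7 and TFAP2B) summed to 3332 and 3199 RPM there, against 152 to 649 RPM in BTAG cells, 126 to 489 RPM in BT cells and 30.8 to 61.3 RPM in reporter ESCs. GABRP, HAND1 and TFAP2B were at 0 in those ESCs and none of the 7 was at 0 in the AG libraries. The germ cell list, which holds the genes of both sort reporters, summed to 299 and 69.5 RPM in AG cells. HAND1 and GATA3 are also on the list of other BMP-responsive genes below, and the part of these cells in the target levels was not tested.

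**Figure D4:**
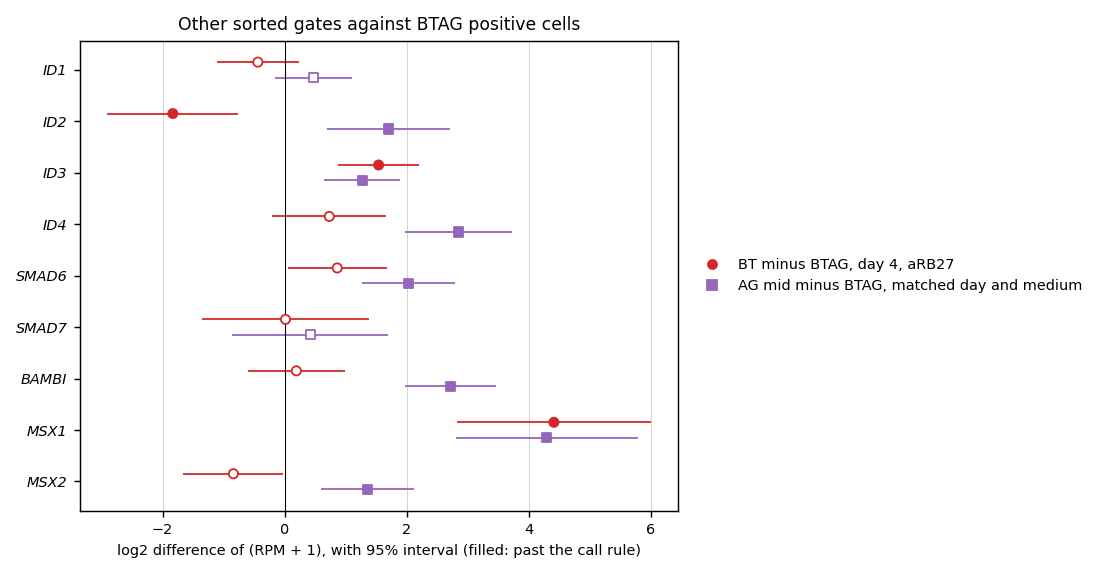
Log2 differences of the 9 genes between gates on the log2(RPM + 1) scale, with 95% intervals: BT minus BTAG at day 4 in aRB27, and AG mid minus BTAG at matched medium and day; filled points were called. MSX1 and ID3 were higher in both gates than in BTAG cells, ID2 was lower in BT (-1.83) and higher in AG (1.70), and ID1 and SMAD7 were called in neither.

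Ranked by mean RPM over the 13 groups, the AG libraries took the top 2 places for ID2, ID3, SMAD6, BAMBI and MSX1, and ESCs of the reporter lines the last for every target except SMAD7. For ID3 the next places went to the BT libraries (856 to 1139 RPM), which overlapped the AG level at day 4, and the BTAG groups followed without overlap with them at 218 to 568 RPM. For MSX1 the BT libraries of day 4 and then day 2 came next. For ID1 the 12 induced groups ran from 195 to 379 RPM on average and most neighbours in the order overlapped. For SMAD7 the ESC group was in place 8 of 13 and overlapped both neighbours.

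**Figure D5:**
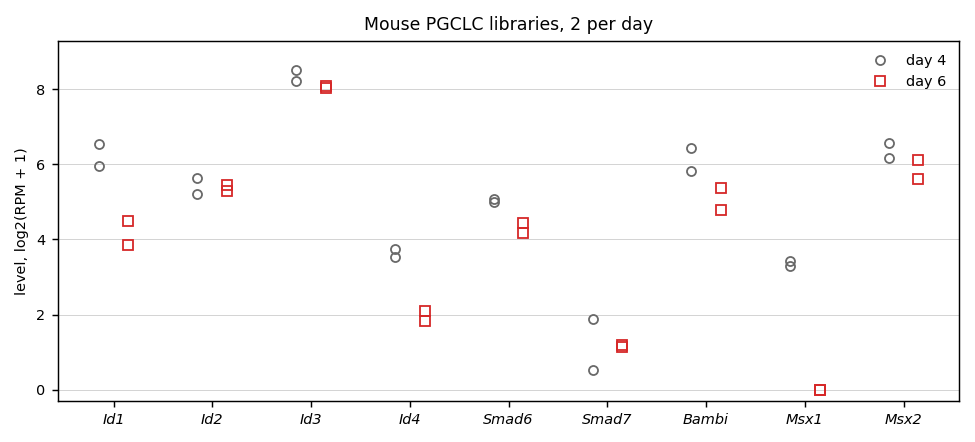
Level as log2(RPM + 1) of the mouse orthologs at days 4 and 6 of mouse PGCLC induction, 1 point per library, 2 libraries a day. Id1 went from 92.7 and 61.0 RPM to 13.4 and 21.4 RPM, while Id2 (35.8 to 48.6 RPM over all 4 libraries) overlapped between days.

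In the mouse the question was the change from day 4 to day 6. Of 7 orthologs tested, Id1, Id4 and Bambi were lower at day 6 (background 1.39% of 8255 genes), and 4 did not pass. Id1 was at 92.7 and 61.0 RPM at day 4 and at 13.4 and 21.4 RPM at day 6, a log2 difference of -2.08 ± 0.27 (SE, limma adjusted p = 0.00239). Id4 went from 10.6 and 12.4 RPM to 2.52 and 3.23 RPM, by -1.69 ± 0.39 (log2, SE, limma adjusted p = 0.0396). Id4 entered the test through its day 4 libraries alone, so its direction is largely set by the filter. Bambi went from 85.2 and 56.1 RPM to 26.4 and 40.4 RPM, by -1.06 ± 0.25 (log2, SE, limma adjusted p = 0.0422). None of these groups overlapped, but leaving out 1 library at a time left between 0 and 2 of the calls. DESeq2 called 1 of the 7, edgeR 3, and a fit with no filter 0.

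The mouse genes that did not pass included Id3, at 301 and 367 RPM and then 270.3 and 264 RPM, and Smad6, at 30.9 and 32.7 RPM and then 20.6 and 16.95 RPM. Msx2 was at 71.5 and 94.1 RPM at day 4 and at 47.9 and 68.2 RPM at day 6. Msx1 (8.83 and 9.72 RPM, then listed at 0 in both) and Smad7 (0.44 to 2.65 RPM) were under the filter. Values of the mouse and monkey tables were scaled separately and were not compared.

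The rest of the pathway was described from lists. In GK15 BTAG cells of day 6, where 14% of all genes were higher than in ESCs and 10.8% lower, 4 of 9 receptors and co-receptors were higher and 1 lower. Among them were BMPR1B (log2 2.77) and BMPR1A (1.72), type I BMP receptors, and RGMA (-3.14), a co-receptor. Of 9 secreted antagonists 4 were higher and 2 lower, with SOSTDC1 (7.09) and GREM1 (6.93) the largest rises and FST, follistatin, the largest decline (-7.39). Of 10 SMADs and cofactors 2 were higher and 1 lower, which is near the share of all genes. Of 5 ligands tested 0 were higher and 2 lower. The median log2 differences were 0.84 for receptors and -0.55 for ligands, against 0.01 for all genes. Of 7 other genes known to respond to BMP, 5 were higher and 1 lower. Those 5, which include GATA3 (1.74 RPM on average in ESCs) and TBX3 (0.11 RPM), were under 10 RPM in every ESC library and so were tested through induced libraries, as were SOSTDC1, GREM1 and BMPR1B. Their direction is largely set by the filter. Among the 3 E proteins that the ID proteins bind, TCF4 was lower (5.74 against 66.6 RPM on average, log2 -3.32), and TCF3 and TCF12 were not called.

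Between gates, 2 of 5 ligands tested were higher in AG and 2 in BT than in BTAG cells. BMP4 was at 295 and 285 RPM in AG libraries and at 1.41 RPM on average in their BTAG partners (log2 7.07 ± 0.69 SE, limma adjusted p = 8.26e-07). BMP2 was at 93.7 RPM on average in BT and 0.31 RPM in BTAG cells of day 4 (log2 6.15 ± 0.71 SE, limma adjusted p = 4.97e-06). With 1.02 RPM on average in ESCs and 2.93 RPM in BTAG cells of day 2, BMP2 entered the test mainly through other gates. Its direction is largely set by the filter. The RNA is the cells' own transcript, and BMP4 protein was added at the same dose to all induced groups. Between media, 0 genes of these lists were called.

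Genes whose level was most like that of a target over the 24 libraries are given as a description, since the libraries share their groups. ID1 was nearest to MSX2 (Pearson r = 0.953 of log2(RPM + 1)) and GATA3 (0.931), and MSX2 to GATA2 (0.959). ID2 was nearest to DLL1 (0.906) and ID3 to APLNR (0.900). SMAD6 was nearest to EFNA1 (0.922), BAMBI to SSBP2 (0.901), ID4 to NPR3 (0.905), MSX1 to LEF1 (0.911), and SMAD7 to NFYA (0.804). Over the 36 pairs of targets, r ran from 0.161 to 0.953 with a median of 0.673. The lowest was between BAMBI and SMAD7 (0.161) and the next between ID2 and SMAD7 (0.167).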

How the data were processed

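The deposited values are RPM (reads scaled by library total) per gene, which the authors made from 3′ RNA-seq reads. The submitters' processing notes name cutadapt 1.3, TopHat 1.4.1, Cufflinks 2.2.0 and GRCm38, the mouse build, and name no monkey build. RPM values of a library are whole multiples of 1 read, so depth was recovered from these steps (99.38% to 99.80% of the values came out whole within 0.1 of a step). Libraries were grouped by their labels and replicates numbered in accession order. RPM were tested on log2(RPM + 1) with limma 3.58.1 in R 4.3.3 (moderated, intensity trend). Genes needed at least 10 RPM in at least 2 libraries of the fit. The 24 used reporter-line libraries shared 1 fit, since several groups hold 1 library. The ESC, day-trend and mouse comparisons had fits of their own. A call needs a Benjamini-Hochberg adjusted p under 0.05 over all genes tested and a log2 difference of at least 1 (for slopes, over 8 days).

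Alternatives were pseudocounts of 0.1 and 10, other filters, median-of-ratios scaling, a term for the code in library names, edgeR 4.0.16 and DESeq2 1.42.0 on the recovered reads, all libraries as labelled, and leaving out each library. By the rule for named genes, all 9 targets could be named in every comparison. Of each other list, up to 3 genes with the largest called difference could be named, and for likeness the nearest genes by Pearson r. The members, lists and tests were chosen with earlier results of these data known, so patterns shown here are no independent support. The fits were tested on simulated data.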

Additional observations from a re-analysis of the deposited data

Results flagged for a closer look

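In the groups of 4 or 5 libraries, 2 of 15 sets of values held 1 library far from the others, where chance flags about 1 in 20. BAMBI was at 103.3 RPM in the third ESC library of the reporter lines, with 0.943 of the group's range between it and the nearest library (n = 4). ID3 was at 262.81 RPM in the fifth ESC library without reporters, with 0.735 of the range below it (n = 5). That library is the only one of line 22, so the line and the library cannot be told apart.

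For the 9 libraries left out of the comparisons, the number of the 9 target genes above every used ESC library is given as a description. The share of all genes above every used ESC library was not computed, so these numbers have no background. In the second GK15 libraries labelled BTAG the number was 8 at day 2, 9 at day 4 and 2 at day 6. It was 8 in each of the GK15 libraries labelled AG mid of days 2 and 4 and 8 in the fifth library labelled day 0. In the aRB27 libraries labelled BTAG it was 4 at day 6, 8 at day 8 and 7 at day 10. The library labelled GK15 BTAG of day 4 had BAMBI at 3397 RPM and MSX1 at 940.0 RPM, above every used library, and the one of day 6 had ID1 at 26.4 RPM and MSX2 at 0.50 RPM. The library labelled day 0 had MSX2 at 75.9 RPM, where the 4 used ESC libraries were at 0.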

How the results depend on the processing

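No called difference of a target gene reversed its sign in any of the alternatives. Of 714 values of the 68 called results under the settings, 633 stayed called and 81 did not, 50 of these with all libraries taken as labelled. Of 398 values with 1 library left out, 370 stayed called and 28 did not. As labelled, 0 targets were called at day 2, at day 6 in GK15, for BT minus BTAG, for AG against ESCs and for AG minus BTAG, 4 at day 4, at days 8 and 10 and for BT against ESCs, and 2 at day 6 in aRB27. With a pseudocount of 10, 4 were called at day 6 in aRB27 and 1 in the mouse, where DESeq2 called 1, no filter 0 and leave-one-out fits 0 to 2. The cause was not tested.

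Signs turned only for uncalled genes. SMAD7 took -0.0114 (edgeR) and -0.0331 (DESeq2) at day 4 and -0.0934 and -0.10 at days 8 and 10. For BT minus BTAG it took -0.0337 (median of ratios), -0.0447 (edgeR) and -0.0329 (DESeq2), for media -0.10 as labelled, for AG minus BTAG -0.12 with the name code, and for the slope -0.0747 as labelled and -0.0023 with the code. ID4 took -0.20 as labelled and -0.22 with one name code alone at day 6 in GK15, and -0.74 for media as labelled. The ID1 slope took 0.0122 (median of ratios), 0.0176 (edgeR) and 0.0166 (DESeq2), the ID2 slope -0.0604 as labelled, ID1 between ESC lines 0.42 as labelled, and mouse Id2 0.0221 with median of ratios. Leaving out single libraries, SMAD7 ran from -0.19 to 0.95 at day 2, -0.28 to 0.86 at day 4, -0.15 to 0.99 at day 6 in GK15, -0.50 to 0.64 at days 8 and 10, -0.13 to 0.16 for BT minus BTAG and -0.0098 to 0.034 for the slope. ID4 ran from -0.52 to 0.82 at day 6 in GK15, SMAD6 from -0.17 to 0.000776 between media, BAMBI from -0.0359 to 0.42 for BT minus BTAG, ID1 from -0.0262 to 0.0034 for the slope and -0.66 to 0.0016 between ESC lines, and mouse Id2 from -0.26 to 0.17.

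Counts over all genes moved by more than 1.5 times as follows. From 1714 at day 2, 2361 at day 4, 2649 and 2770 at day 6 in GK15 and aRB27 and 3329 at days 8 and 10, they became 1012, 1369, 1692, 1622 and 1959 with a pseudocount of 10, and 963, 1293, 1464, 1538 and 1804 with a mean of at least 20 RPM. As labelled they were 136 at day 2, 755 at day 4 and 0 at day 6 in GK15, where one name code alone gave 1629. On adjusted p alone, days 8 and 10 gave 5212. From 1619 for BT minus BTAG, 1910 for BT and 1182 for AG against ESCs and 1184 for AG minus BTAG, they became 403, 851, 0 and 0 as labelled and 967, 1018, 665 and 696 with the mean filter, and BT 1115 with a pseudocount of 10. The 9 genes between media ranged from 1 to 49, the 1904 slopes became 1186 with the mean filter, and the 19 between ESC lines 12 with it and 316 by DESeq2. In the mouse 214 became 94 with a pseudocount of 10, 130 with the mean filter, 138 by DESeq2, 355 on adjusted p alone and 0 with no filter.

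Comparisons of AG cells on one name code alone, and without their single libraries, could not be run. No paired analysis was possible because the labels carry no replicate numbers and the numbers used here follow accession order. SMAD7 gained a call on one name code alone at day 6 in aRB27 (1.73) and for BT against ESCs (1.73). Depth limits SMAD6, MSX1 and MSX2 in ESCs, where the 4 libraries held 2 to 15, 0 to 3 and 0 reads.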
